A study of Mus musculus with 12 samples.

Results

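The genes described here are 10 genes of the elastic fibre and of the spondin family in the mouse submandibular gland (SMG): the fibrillins *Fbn1* and *Fbn2*, elastin (*Eln*), the fibulins *Fbln1*, *Fbln2* and *Fbln5*, the microfibril-associated genes *Mfap4* and *Mfap5*, and the spondins *Spon1* and *Spon2*. They were taken by symbol from the 56065 genes listed in the deposited count table, and all 10 were among the 17893 genes that passed the low-count filter. Bulk RNA-sequencing was performed on 12 SMGs from mice aged 8 weeks, 3 in each of 4 groups. These were wild-type mice of strain C57BL/6J, by sex, and knockout mice of strain C57BL/6J-*Pou2f3 em1Cbwi*/J (C57BL/6J-*Pou2f3-/-*), by sex. In the knockout line, *Pou2f3*, the transcription factor that specifies tuft cells (TCs), is inactivated in every tissue and from conception, so that TC loss is neither limited to the gland nor timed. The labels name no treatment, and they give each library as a separate mouse, so that p-values measure the spread between mice of a group.

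Elastic fibres give tissue its recoil. Fibroblasts and smooth muscle cells secrete fibrillins, which assemble into microfibrils, and these serve as a scaffold on which tropoelastin, the product of *Eln*, is deposited and cross-linked by lysyl oxidases. Fibulins and microfibril-associated proteins join elastin to the microfibrils or to cells, and fibrillins also bind latent TGF-beta complexes. Spondins are secreted matrix proteins with thrombospondin repeats: SPON1, or F-spondin, was first described in the floor plate of the embryonic nervous system, and SPON2 is known as a ligand of integrins and as a pattern recognition molecule of the innate immune system. In salivary glands these fibres lie in the capsule and septa, around vessels and around ducts.

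Total estimated counts per library ranged from 47032175 to 67882207. *Pou2f3* itself had 0 to 10 counts in any library, so that the knockout could not be checked against the labels by this gene. The SMG was recognisable in all 12 libraries by the acinar genes *Aqp5* (4897 to 14861 counts) and *Bhlha15* (7808 to 15348 counts) and by the ductal marker *Krt8* (3040 to 8381 counts). The sum of 5 acinar marker genes was 181407 normalized counts in knockout male 2 and 12509 to 59828 in the other male libraries. In knockout male 2 *Aqp5* and *Bhlha15* stood at their lowest counts of all 12 libraries, 4897 and 7808, so that other genes of the list carried this sum. Of those, *Bpifa2* and *Smr3a* had 6 to 125303 and 0 to 51867 counts over the libraries. Libraries are named by group and by the mouse number of the labels. Normalized counts are counts scaled to a common library size by edgeR's TMM method.

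Among the 10 genes, *Spon2* was up-regulated in knockout mice of both sexes, 2.72-fold in females and 2.59-fold in males. *Fbn2* was up-regulated in knockout males, 6.94-fold. The 8 remaining genes did not pass the test in either sex, although in males *Fbn1*, *Eln*, *Fbln5* and *Mfap5* were higher in every knockout than in every wild-type library. In wild-type glands *Spon2*, *Mfap4* and *Spon1* were higher in males and *Fbln1* was higher in females. A gene was called a differentially expressed gene (DEG) at a Benjamini-Hochberg adjusted p under 0.05 in edgeR's quasi-likelihood test, with adjustment over all 17893 genes.

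These counts are read against the share of all tested genes that passed the same rule. In females 1 of the 10 genes was a DEG, higher in knockout, whereas 36.9% of all genes were DEGs and 17.6% were higher. In males 2 of the 10 were DEGs, both higher in knockout, and of all genes 0.235% were DEGs and 0.101% were higher. With 1 library left out the male count ran from 0, without knockout male 2 or any wild-type male, to 5, without knockout male 1. Also in males, 6 of the 10 genes were higher in all knockout than in all wild-type libraries, against 6.51% of all genes, and 7 of the 10 were higher at an unadjusted p under 0.05, against 5.60%. The median log2 fold change of the 10 genes was 0.79 in males, where that of all genes was −0.04, and 9 of the 10 values were positive, as were 42.5% of all values. In females the median of the 10 genes was 0.06 and that of all genes was 0.03. These counts and medians describe the 10 genes, which were chosen with earlier results of these data known, and are no test of them as a set.

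**Figure D1:**
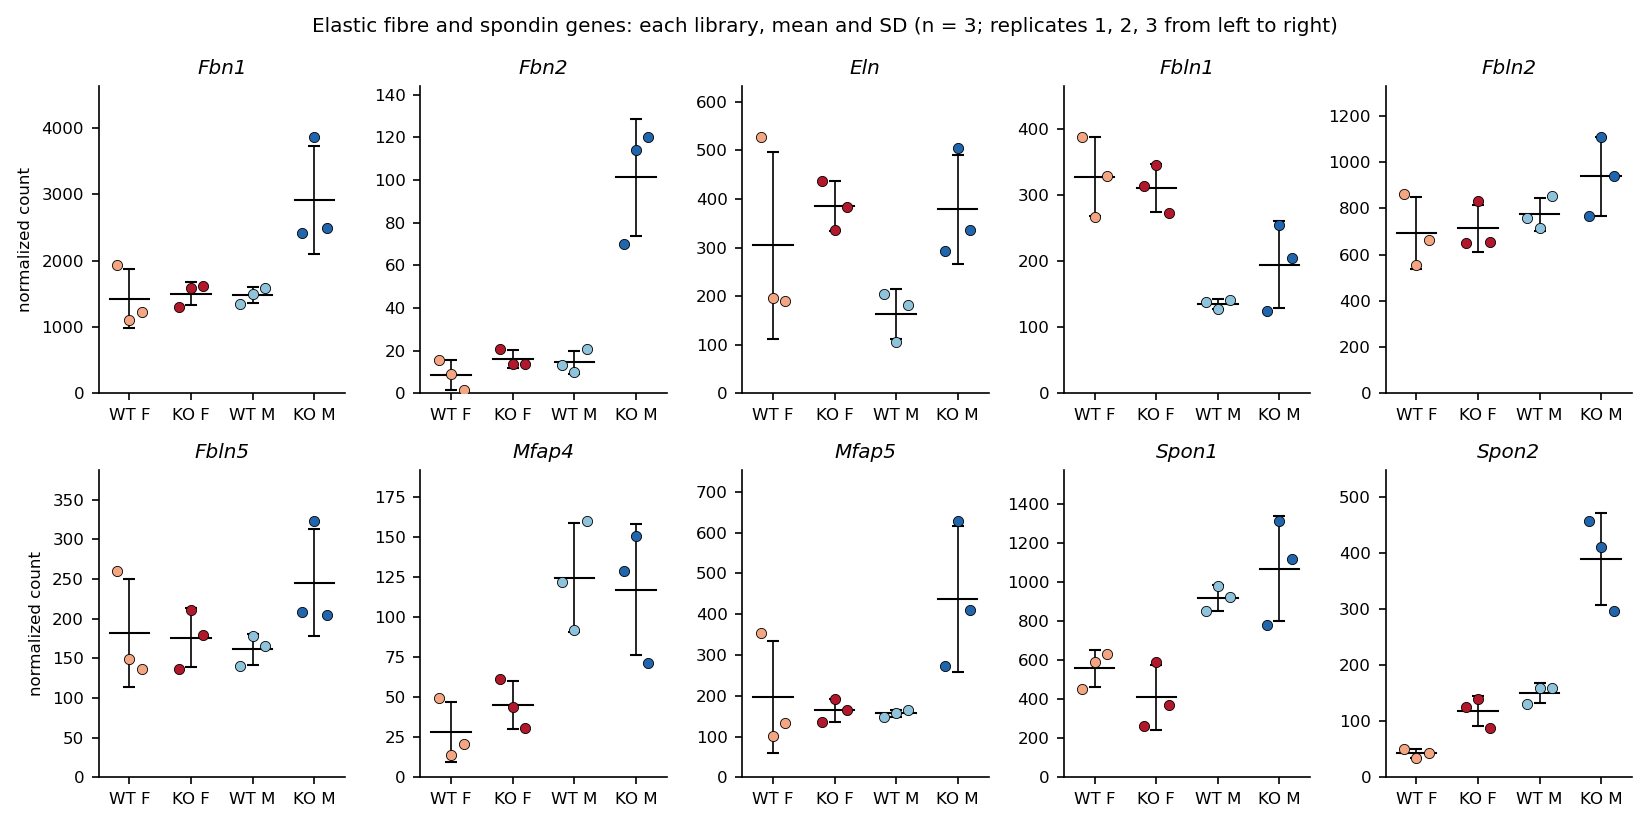
Normalized counts (vertical axes, each starting at 0) of the 10 genes in 12 libraries, with points for mice 1, 2 and 3 of wild-type (WT) and knockout (KO) females (F) and males (M), horizontal lines for group means and bars for SD (n = 3). *Spon2* is higher in all knockout than in all wild-type libraries of the same sex, *Fbn2* stands at 69.9 to 120 in knockout males and at 20.8 or less in every other library, and *Spon1*, *Mfap4* and *Fbln1* separate the sexes in wild-type glands.

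To compare the genes with each other, normalized counts were divided by the length of each gene's canonical transcript in kilobases. On this scale *Fbln2* had the highest mean in wild-type males, with 162 ± 14.9 (SD, n = 3) normalized counts per kb, followed by *Spon1* with 144 ± 10.2 and *Fbn1* with 123 ± 10.2. The ranges of *Fbln2* (149 to 178) and *Spon1* (134 to 154) overlapped, while *Fbn1* (112 to 132) lay below both. *Mfap4* (72.4 ± 19.8), *Spon2* (61.1 ± 7.09) and *Fbln1* (58.2 ± 3.13) came next, with overlapping ranges. *Eln* (41.0 ± 12.9), *Mfap5* (36.2 ± 1.91) and *Fbln5* (26.0 ± 3.14) were lower, and each overlapped the next in this order except that *Mfap5* (34.3 to 38.2) lay above *Fbln5* (22.5 to 28.7). *Fbn2*, a fibrillin known chiefly from the embryo, was the lowest of the 10 in every group, with 1.30 ± 0.496 normalized counts per kb in wild-type males against 9.11 ± 2.46 in knockout males. *Fbn1* ranked first by mean level per kb in knockout males and the third in the other groups. *Fbln2* ranked first in those groups.

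**Figure D2:**
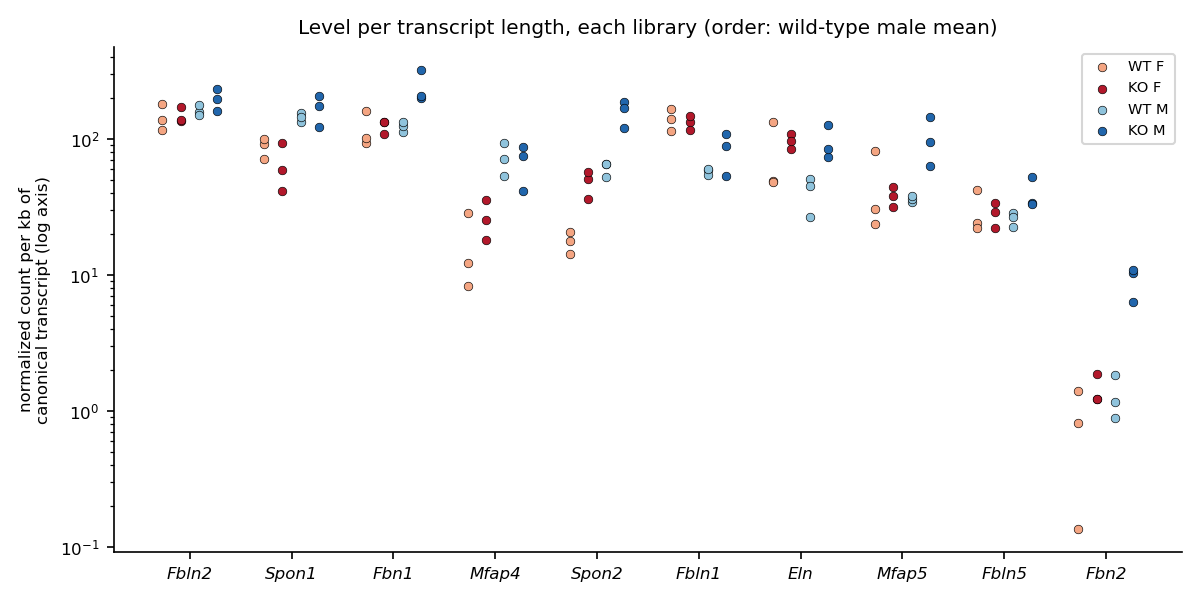
Normalized count per kilobase of canonical transcript (vertical axis, logarithmic) in each of 12 libraries, with the 10 genes ordered by their mean in wild-type males and 1 point per mouse, coloured by group (WT, wild type; KO, knockout; F, female; M, male). *Fbln2*, *Spon1* and *Fbn1* lie highest in wild-type males, at means of 162, 144 and 123, and *Fbn2* lies lowest in every group, with a mean of 0.789 in wild-type females and 9.11 in knockout males.

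*Fbn1* (ENSMUSG00000027204.14, GRCm39 chromosome 2, 125142514 to 125349913) encodes fibrillin-1, the main microfibril protein of adult tissue. In males it had 1348, 1501 and 1590 normalized counts in wild-type mice 1, 2 and 3, and 2411, 3856 and 2488 in knockout mice 1, 2 and 3. In females the values were 1934, 1111 and 1225 in wild type and 1299, 1589 and 1613 in knockout. Every knockout male was above every other library of the series, whereas the female genotypes overlapped, with wild-type female 1 the highest female. The log2 fold change in males was 0.98 (SE 0.21), which did not pass (edgeR, adjusted p = 0.098). It passed without knockout male 1 (1.10, edgeR adjusted p = 0.023) and without wild-type female 1 (1.02, adjusted p = 0.03 from the same tool). In females it was 0.07 (SE 0.21, edgeR, adjusted p = 0.81).

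*Fbn2* (ENSMUSG00000024598.10, chromosome 18) encodes fibrillin-2, which is deposited in microfibrils mainly before birth. Its deposited counts were low in all but 1 group: 14, 7 and 1 in wild-type females, 18, 14 and 11 in knockout females, 17, 12 and 25 in males of the wild type, but 75, 122 and 132 in knockout males. The lowest knockout male was therefore above the highest of the 9 other libraries. After normalization the means were 14.5 ± 5.52 in wild-type and 101 ± 27.4 in knockout males (SD, n = 3), a log2 fold change of 2.79 (SE 0.49, edgeR, adjusted p = 0.037). In females the log2 fold change was 0.80 (SE 0.56, edgeR, adjusted p = 0.29). The male fold stayed large with any 1 library left out, between 2.59 and 3.13 on the log2 scale, but the call was lost in 9 of the 12 cases. The adjusted p of edgeR was 0.2 without knockout male 2 or 3, 0.17, 0.13 and 0.1 without wild-type male 1, 2 or 3, 0.057, 0.055 and 0.065 without knockout female 1, 2 or 3, and 0.051 without wild-type female 2. The female libraries enter this value through the scaling, the shared estimate of spread and the set of genes tested.

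*Eln* (ENSMUSG00000029675.13, chromosome 5, 134731445 to 134776322) encodes tropoelastin, the soluble precursor of the elastic core. In males it had 204, 106 and 181 normalized counts in wild-type and 294, 505 and 337 in knockout mice, without overlap. The log2 fold change of 1.21 (SE 0.37) did not pass (edgeR, adjusted p = 0.21). In females it had 527, 197 and 191 in wild-type and 438, 336 and 383 in knockout mice. Wild-type female 1 was the highest of all 12 libraries, and the other wild-type females lay below every knockout female. The female log2 fold change was 0.33 (SE 0.36, edgeR, adjusted p = 0.51) with all libraries and 0.92 (edgeR, adjusted p = 0.026) without wild-type female 1.

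The 3 fibulins differed less between the genotypes. *Fbln5* (ENSMUSG00000021186.10, chromosome 12, 101712556 to 101785429) encodes a fibulin that carries tropoelastin to microfibrils and binds integrins. It had 140, 178 and 166 normalized counts in wild-type males against 209, 323 and 205 in knockout males, a log2 fold change of 0.61 (SE 0.26, edgeR, adjusted p = 0.39). The male groups did not overlap, and the gap between them was small beside the distance of knockout male 2 from the other knockouts. In females it had 260, 149 and 137 in wild type and 137, 211 and 180 in knockout, with overlap (log2 fold change −0.05, SE 0.27, edgeR, adjusted p = 0.90).

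*Fbln1* (ENSMUSG00000006369.15, chromosome 15, 85090150 to 85170737), a fibulin of basement membranes and elastic fibres, had 138, 127 and 141 normalized counts in wild-type males against 125, 254 and 205 in their knockout counterparts. Knockout male 1 was below every wild-type male while the other knockouts were above (log2 fold change 0.52, SE 0.22, edgeR, adjusted p = 0.40). Without knockout male 1 the value was 0.76 and passed (edgeR, adjusted p = 0.04). Females had 387, 267 and 329 in wild type and 313, 345 and 273 in knockout, and overlapped throughout (log2 fold change −0.08, SE 0.22, edgeR, adjusted p = 0.81).

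*Fbln2* (ENSMUSG00000064080.13, chromosome 6, 91189437 to 91249522), which encodes a large fibulin that binds fibrillin and tropoelastin, did not pass in either sex. Its means were 692 ± 155 and 712 ± 101 normalized counts in wild-type and knockout females, and 774 ± 71.2 and 937 ± 170 in wild-type and knockout males (SD, n = 3). The ranges overlapped in both sexes: 554 to 860 against 652 to 830 in females, and 714 to 853 against 768 to 1107 in males. The log2 fold changes were 0.04 (SE 0.17) in females and 0.28 (SE 0.17) in males (edgeR, adjusted p = 0.87 and 0.58).

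*Mfap5* (ENSMUSG00000030116.15, chromosome 6, 122470878 to 122508875) encodes a small microfibril-associated glycoprotein that binds fibrillins. In males it had 149, 157 and 166 normalized counts in wild-type and 274, 628 and 410 in knockout mice. The wild-type males lay close together, and the lowest knockout male was well above them. The log2 fold change was 1.48 (SE 0.39) and did not pass with all libraries (edgeR, adjusted p = 0.15), but passed without knockout male 1 (1.73, edgeR adjusted p = 0.037) or without wild-type female 1 (1.52, edgeR adjusted p = 0.034). In females it had 355, 102 and 133 in wild type and 137, 193 and 165 in knockout. Wild-type female 1 was again the highest female, and without it the female log2 fold change turned from −0.26 (SE 0.40, edgeR, adjusted p = 0.64) to 0.43 (edgeR, adjusted p = 0.30). *Rimklb*, a protein-coding gene on the opposite strand, overlaps *Mfap5* and had 36 to 115 counts.

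*Mfap4* (ENSMUSG00000042436.13, chromosome 11, 61376212 to 61379727) encodes a fibrinogen-related protein that binds fibrillin-1 and elastin. In females it had 49.5, 14.3 and 21.1 normalized counts in wild-type and 61.2, 43.7 and 31.0 in knockout mice. These low counts overlapped through wild-type female 1 (log2 fold change 0.66, SE 0.45, edgeR, adjusted p = 0.28), and without that mouse the value was 1.30 and passed (edgeR, adjusted p = 0.042). In males it had 122, 92.0 and 160 in wild-type and 129, 151 and 71.7 in knockout mice, with no order by genotype (log2 fold change −0.09, SE 0.40, edgeR, adjusted p = 0.96). *Mapk7*, which overlaps *Mfap4* on the opposite strand, had 77 to 286 counts.

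*Spon2* (ENSMUSG00000037379.8, chromosome 5, 33353751 to 33378075), the spondin known for its part in innate immunity, was the only one of the 10 genes to be a DEG in both sexes. Females had 50.6, 35.0 and 43.7 normalized counts in wild type and 125, 140 and 88.0 in knockout. Males had 130, 160 and 160 in wild type and 456, 411 and 297 in knockout. In each sex every knockout library was above every wild-type library, and the knockout females, at 88.0 to 140, reached the range of wild-type males at 130 to 160. The log2 fold change was 1.44 (SE 0.24, edgeR, adjusted p = 0.00081) in females and 1.37 (SE 0.21, edgeR, adjusted p = 0.017) in males. With any 1 of the 12 libraries left out, the female value ran from 1.25 to 1.56 and passed in all 12 cases. The male value ran from 1.24 to 1.53 and passed in 8 of them. The call was lost without knockout male 2 (1.33, edgeR adjusted p = 0.11), wild-type male 1 (1.28, edgeR adjusted p = 0.11), wild-type male 2 (1.42, edgeR adjusted p = 0.068) or wild-type male 3 (1.42, edgeR adjusted p = 0.087).

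*Spon1* (ENSMUSG00000038156.17, chromosome 7, 113364999 to 113642610) encodes F-spondin. It had 454, 590 and 634 normalized counts in wild-type females and 264, 594 and 374 in knockout females. Knockout female 2 lay among the wild-type females while the other knockouts lay below them (log2 fold change −0.44, SE 0.25, edgeR, adjusted p = 0.20), and without knockout female 2 the value was −0.86 and passed (edgeR, adjusted p = 0.016). Males had 853, 983 and 923 in wild type and 781, 1314 and 1118 in knockout, with knockout male 1 below and the others above the wild-type range (log2 fold change 0.22, SE 0.25, edgeR, adjusted p = 0.80).

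**Figure D3:**
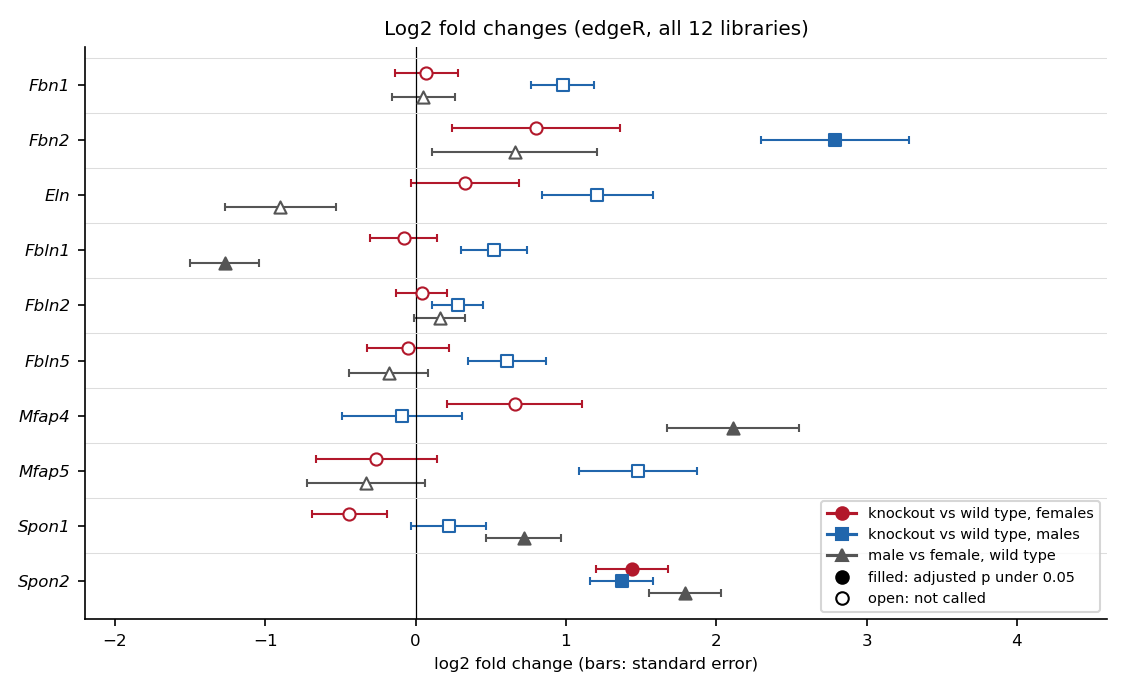
Log2 fold changes of the 10 genes (horizontal axis) with their standard errors as bars, for knockout against wild type in females (circles) and males (squares) and for male against female wild type (triangles), with filled symbols for an adjusted p under 0.05. *Spon2* is filled in all 3 comparisons, at 1.44, 1.37 and 1.79, *Fbn2* is filled in males at 2.79, and *Fbn1*, *Eln*, *Fbln5* and *Mfap5* are positive but open in males.

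Whether the genotype difference itself differed between females and males was tested by the interaction, the female log2 fold change minus the male one. This contrast passed for 2 of the 10 genes, both negative, and for 25.7% of all genes, 12.4% with a negative and 13.4% with a positive sign. *Fbn1* had an interaction of −0.91 (SE 0.30, edgeR, adjusted p = 0.041), from 0.07 in females and 0.98 in males. *Mfap5* had −1.74 (SE 0.55, edgeR, adjusted p = 0.037), from −0.26 in females and 1.48 in males. For both genes the larger difference was the male one, although neither was a DEG in males. Some marker genes moved in the same contrast and with the same sign. Of the adipocyte markers 5 of 5 passed with a negative interaction (median −8.55 on the log2 scale). So did 2 of 5 macrophage markers, *Adgre1* at −2.33 and *Cd163* at −1.57 (edgeR, adjusted p = 0.041 and 0.038). Of the 8 fibroblast markers 1 passed, beside 12.4% of all genes, *Dpt* at −1.78 (edgeR, adjusted p = 0.0088). No tested marker of the other lists passed, among them smooth muscle and pericyte, endothelial and Schwann cell markers (medians −0.48, −0.33 and 0.41). Among wild-type females the adipocyte sum was highest in mouse 3 (3499), while *Fbn1* and *Mfap5* were highest in mouse 1 (1934 and 355). The part of these cell types in the interactions of *Fbn1* and *Mfap5* was not tested.

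The *Fbn1* interaction was lost without knockout female 1 (−0.89, edgeR adjusted p = 0.07), knockout male 2 (−0.66, edgeR adjusted p = 0.097) or wild-type male 1, 2 or 3 (−0.85, −0.92 and −0.96, edgeR adjusted p from 0.054 to 0.097). The *Mfap5* interaction was lost without 8 of the 12 libraries, at edgeR adjusted p from 0.053 to 0.094. Its value then was −1.08 without wild-type female 1 and −1.39 without knockout male 2. It was −1.70 and −1.81 without knockout female 1 or 3, −1.79 without knockout male 3, and −1.71, −1.74 and −1.78 without wild-type male 1, 2 or 3. With all libraries, the *Fbn1* interaction was also lost with upper-quartile scaling (−0.83, edgeR adjusted p = 0.064). That of *Mfap5* was lost with the authors' factors (−1.46, edgeR adjusted p = 0.14). With wild-type female 1 and knockout male 2 both left out, an alternative chosen after seeing the data, the interactions were −0.45 for *Fbn1* and −0.71 for *Mfap5* (edgeR, adjusted p = 0.071 and 0.12).

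*Fbn2*, the gene with the largest male fold among the 10, had an interaction of −2.00 (SE 0.74) that did not pass (edgeR, adjusted p = 0.064), but did without wild-type female 3 (−2.51, edgeR adjusted p = 0.019), the library in which its count was 1. For *Spon2* the interaction was 0.07 (SE 0.31, edgeR, adjusted p = 0.89), a difference between the sexes smaller than its standard error. The other 6 genes had interactions from −0.88 (*Eln*) to 0.75 (*Mfap4*) that did not pass. Among them, *Spon1* passed without knockout female 2 (−1.11, edgeR adjusted p = 0.022) and *Fbln1* without knockout male 1 (−0.84, edgeR adjusted p = 0.027).

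The mouse SMG differs by sex, chiefly in the granular convoluted tubules of males, and 36.5% of all genes differed between wild-type males and females. Of the 10 genes, 4 did, 3 of them higher and 1 lower in males, beside 20.5% and 16.0% of all genes. *Spon2* was 3.46-fold higher in males (log2 fold change 1.79, SE 0.24, edgeR, adjusted p = 7.6e-05) and *Mfap4* was 4.33-fold higher (2.11, SE 0.44, edgeR, adjusted p = 0.0025), each without overlap between the groups. *Spon1* was 1.65-fold higher in males (0.72, SE 0.25, edgeR, adjusted p = 0.039), also without overlap. *Fbln1* was lower in males, at 136 ± 7.28 normalized counts against 327 ± 59.8 in females (SD, n = 3), a log2 fold change of −1.27 (SE 0.23, edgeR, adjusted p = 0.00075). These 4 genes thus did not move together: both spondins and *Mfap4* were higher in males, and the fibulin in females. Marker sums also differed between the wild-type sexes without overlap, at 20971 to 26589 normalized counts in males against 8148 to 11415 in females for smooth muscle and pericyte markers (3 of 7 higher and 1 lower DEG in males). The higher ones were *Acta2*, *Myh11* and *Tagln*, and *Rgs5* was lower (−1.02, edgeR, adjusted p = 0.0016). *Des*, *Notch3* and *Cspg4* did not pass (0.37, 0.00 and 0.18). The endothelial sum was 897 to 1029 in males against 1569 to 1860 in females (4 of 4 lower). The convoluted tubule sum was 2746750 to 5026496 in males against 27054 to 49403 in females (5 of 5 higher). The sums of myoepithelial markers (3885 to 4351 in males against 2022 to 2605 in females), ductal markers (19910 to 21804 against 12587 to 16097) and Schwann cell markers (1816 to 2339 against 3337 to 3739) did not overlap either. Of the adipocyte markers 4 of 5, and of the macrophage markers 2 of 5, were lower DEGs in males. So were 2 of the 5 acinar markers, *Bhlha15* at −1.04 and *Aqp5* at −1.18 (edgeR, adjusted p = 0.00029 and 0.00012). The acinar markers *Bpifa2*, *Smr3a* and *Dcpp1* had positive values that did not pass. The part of these cell types in the sex differences of the 10 genes was not tested. *Eln* was lower in males by −0.90 on the log2 scale (SE 0.37) without passing (edgeR, adjusted p = 0.072), and passed without wild-type female 2 or 3 (−1.15 in each case, edgeR adjusted p = 0.038 and 0.039). The fibrillins, *Fbln2*, *Fbln5* and *Mfap5* did not pass, with log2 fold changes from −0.33 to 0.66. This comparison shares its wild-type libraries with both genotype comparisons.

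With any 1 library left out, the sex differences of *Spon2* (1.64 to 1.89), *Mfap4* (1.78 to 2.78) and *Fbln1* (−1.42 to −1.17) passed in all 12 cases. That of *Spon1* (0.55 to 0.80) passed in 4 of them. It was lost without wild-type female 1, 2 or 3 (0.55, 0.73 and 0.80), wild-type male 1, 2 or 3 (0.77, 0.67 and 0.72), knockout female 3 (0.69) or knockout male 3 (0.72), with edgeR adjusted p from 0.052 to 0.15. It was also lost with RLE scaling (0.67), with library sizes that left out the 20 most abundant genes (0.69), with upper-quartile scaling (0.64) and with the authors' factors (0.56), at edgeR adjusted p from 0.052 to 0.13.

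The promoters of 3 of the 4 genes that differed by sex in wild-type glands are shown, because these members differed between control groups. The call of *Spon1* among them was not stable. They are the bases just upstream of the canonical transcript start, read from GRCm39 by the annotation of Gencode M39, printed 5′ to 3′ on the strand of the gene, with motif matches in capitals. *Fbln1* is at chr15:85089900-85090149 on the plus strand, *Spon1* at chr7:113364769-113364998 on the plus strand and *Spon2* at chr5:33375800-33376049 on the minus strand. The *Spon1* window stops at the gene's first annotated base, which lies 20 bases before the canonical start. The *Spon2* window lies within the gene, since longer transcripts start further upstream. *Mfap4* is not shown because an exon lies in its window.
Fbln1: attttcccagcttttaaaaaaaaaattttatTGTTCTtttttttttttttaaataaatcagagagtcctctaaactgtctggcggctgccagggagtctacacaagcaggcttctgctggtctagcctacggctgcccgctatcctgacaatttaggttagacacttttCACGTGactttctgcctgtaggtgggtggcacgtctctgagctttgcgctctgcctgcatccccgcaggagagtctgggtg
Spon1: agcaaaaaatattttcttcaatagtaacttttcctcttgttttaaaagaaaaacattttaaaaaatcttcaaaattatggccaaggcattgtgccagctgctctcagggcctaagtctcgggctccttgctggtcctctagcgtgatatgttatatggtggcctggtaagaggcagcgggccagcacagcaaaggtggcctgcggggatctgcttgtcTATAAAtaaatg
Spon2: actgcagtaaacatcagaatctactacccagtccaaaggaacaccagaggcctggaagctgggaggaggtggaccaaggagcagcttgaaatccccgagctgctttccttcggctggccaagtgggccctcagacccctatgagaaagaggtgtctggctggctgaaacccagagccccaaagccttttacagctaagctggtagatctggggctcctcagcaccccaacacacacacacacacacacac

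In the 250 bases before each canonical start, 5 motifs chosen after the values were seen were searched on both strands: the TATA box TATAAA, the GC box GGGCGG, the E-box CACGTG, the D-box TTATGTAA and the androgen receptor hexamer AGAACA, none of which contains another. Over 21770 coding genes, windows of the same length held them in 11.9%, 36.3%, 6.26%, 0.836% and 14.3% of cases. In *Fbln1* the hexamer matched at −219 on the opposite strand and the E-box at −81, and in *Spon1* the TATA box matched at −32, counted from the canonical start. *Spon2* held no match to these letters. GC boxes were found in *Mfap4* at −50 and −7, in *Fbn2* at −23 and in *Fbln5* at −214 and −170, which is 3 of the 10 genes. The windows of *Fbn1*, *Eln*, *Fbln2* and *Mfap5* held none of the 5. These matches describe letters in the windows and say nothing of a factor's binding.

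Some libraries stood apart for many of the 10 genes at the same time. Wild-type female 1 was the highest of its group for 9 of the 10 genes, all but *Spon1*. Among knockout males, mouse 2 was the highest for 8 genes and mouse 1 the lowest for 7. Sums of marker genes of stromal and other cell types moved in the same libraries. The sum of 8 fibroblast markers was 24066, 26428 and 25745 normalized counts in wild-type males against 29793, 53287 and 41793 in knockout males. In females it was 28120, 19229 and 25758 in wild type and 21201, 31566 and 24328 in knockout. The male groups therefore did not overlap in this sum and the female groups did, as for *Fbn1*, *Eln*, *Fbln5* and *Mfap5*.

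Of the 8 fibroblast markers, 1 was a DEG in males, higher in knockout, beside 0.101% of all genes: *Dpt*, which encodes dermatopontin, at 1.84 on the log2 scale (SE 0.29, edgeR, adjusted p = 0.017). Its call was lost without knockout male 2 or 3 (1.45 and 1.92) or wild-type male 1, 2 or 3 (1.82, 1.92 and 1.77), at edgeR adjusted p from 0.058 to 0.12. The median of the 8 was 0.77 in males and 0.08 in females, beside 0.79 and 0.06 for the 10 genes. In bulk tissue, more or fewer cells of a type and more or less RNA per cell cannot be told apart.

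Markers of further cell types also moved with these libraries. The sum of 5 macrophage markers was 6068, 2285 and 3012 in wild-type females, with mouse 1 the highest, and 3301, 5968 and 5579 in knockout males against 2521 to 3021 in wild-type males. The sum of 5 adipocyte markers was 124, 2743 and 1799 in knockout males and 25.4 to 47.8 in wild-type males, but 101, 436 and 3499 in wild-type females, where the highest library was mouse 3, and 50.8, 212 and 23.5 in knockout females. The median log2 fold change of the 5 adipocyte markers was −3.43 in females, where 3 of 5 were lower DEGs, and 5.24 in males. The sum of 5 lymphocyte markers was 19.8 to 65.6 in all 12 libraries, near the floor of detection, and 2 of the 5 passed the low-count filter. The 7 smooth muscle and pericyte markers summed to 20971 to 26589 in wild-type and 16218 to 23521 in knockout males, and the 4 endothelial markers to 897 to 1029 and 788 to 1033. In females the knockout libraries lay below all wild-type libraries for the smooth muscle and pericyte sum (6365 to 7727 against 8148 to 11415), the endothelial sum (1269 to 1490 against 1569 to 1860) and the sum of myoepithelial markers (1592 to 1862 against 2022 to 2605). Of these markers 3 of 7, 1 of 4 and 2 of 3 tested were lower DEGs in knockout females, beside 19.3% of all genes, in the comparison in which *Spon2* was higher. All marker sums depend on the TMM scaling, and no other scaling was applied to them. The TMM factors did not overlap between the female genotypes, at 0.625 to 0.759 in wild type and 0.902 to 1.03 in knockout. None of the fibroblast markers was at 0 in any group. The part of these cell types in the differences of the 10 genes was not tested.

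**Figure D4:**
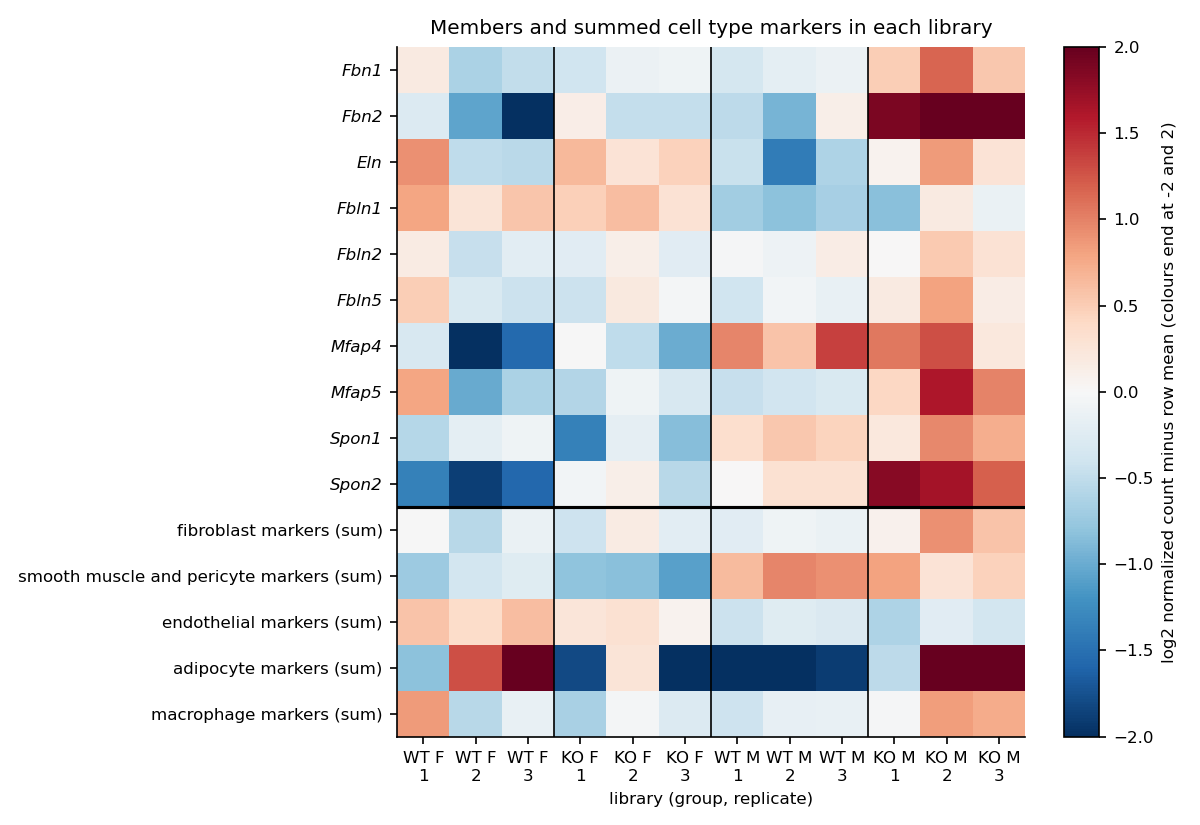
Each row shows a gene, or below the thick line the sum of a marker list, and each column a library (WT, wild type; KO, knockout; F, female; M, male; mouse 1 to 3), coloured by the log2 normalized count minus the row's mean over 12 libraries, with colours ending at −2 and 2. *Fbn1* is high in every knockout male (2411, 3856 and 2488 normalized counts in mice 1, 2 and 3), as is *Fbn2*. *Mfap5* and the fibroblast, adipocyte and macrophage sums are higher in knockout males 2 and 3 than in knockout male 1. *Spon2* is highest in knockout male 1, where those sums are the lowest of the knockout males, and wild-type female 1 is high for *Eln*, *Fbln1*, *Mfap5* and the macrophage sum.

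As a description, each gene was also expressed per 1000 normalized counts of the 8 fibroblast markers, a ratio added after seeing the data and given with no test. On this scale *Spon2* was 1.70 to 1.82 in wild-type and 3.62 to 5.88 in knockout females, and 5.40 to 6.21 in wild-type and 7.10 to 15.3 in knockout males. *Spon2* thus stayed without overlap in both sexes. Its ratio of group medians was 2.46 in females and 1.27 in males, against fitted folds of 2.72 and 2.59. *Fbn2* stayed higher in knockout males (2.15 to 2.87 against 0.373 to 0.801) and so did *Mfap5* (9.20 to 11.8 against 5.93 to 6.44), with ratios of group medians of 4.33 and 1.58, where the fitted folds were 6.94 and 2.78. *Fbn1* (59.5 to 80.9 against 56.0 to 61.8), *Eln* (8.06 to 9.86 against 4.01 to 8.50) and *Fbln5* (4.91 to 7.01 against 5.81 to 6.74) overlapped between the male genotypes, as did *Fbln1* (4.19 to 4.91 against 4.82 to 5.75) and *Mfap4* (1.72 to 4.32 against 3.48 to 6.21). In females all genes but *Spon2* overlapped between the genotypes. *Fbln2* (20.8 to 25.8 against 27.0 to 33.1) and *Spon1* (24.7 to 26.7 against 35.4 to 37.2) were lower in knockout males.

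**Figure D5:**
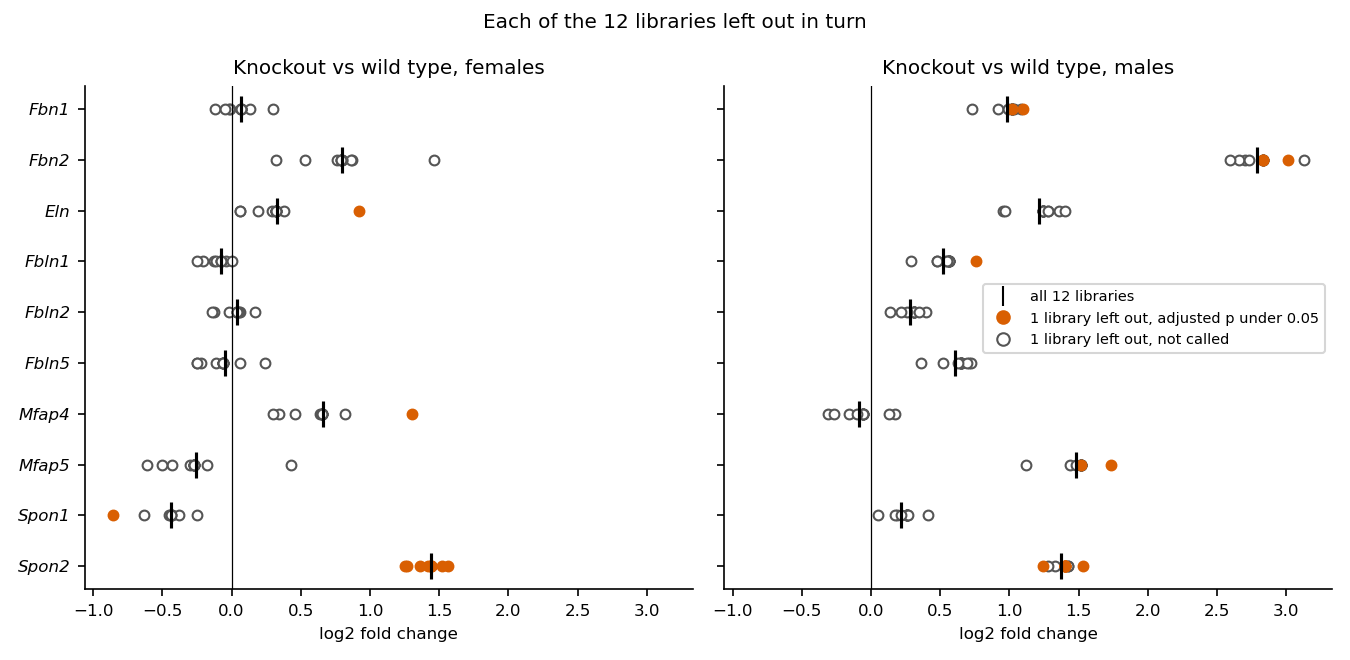
Log2 fold changes (horizontal axis) of knockout against wild type in females (left) and males (right) for the 10 genes, with a bar for the fit to all 12 libraries and a circle for each fit with 1 library left out, filled where the adjusted p was under 0.05. In females *Spon2* is filled in all 12 fits, between 1.25 and 1.56, and in males *Spon2* is filled in 8 fits and *Fbn2* in 3, while no left-out library brings either below 1.24.

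Of 49 other genes that act with these proteins, 45 passed the low-count filter. Those left untested were *Emilin3*, *Elane*, *Rspo2* and *Rspo4*. In females 5 of the 45 were up-regulated and 4 were down-regulated, where 17.6% and 19.3% of all genes were (8 and 2 with upper-quartile scaling), and in males 0 of the 45 were DEGs by edgeR. In males 13 of the 45 were higher and 4 lower at an unadjusted p under 0.05 in edgeR, beside 5.60% and 5.89% of all genes, and 6 higher and 2 lower genes passed by DESeq2, which called 225 higher and 181 lower of all 17893 genes. In edgeR 7 of the companion genes passed with no low-count filter, where 389 of 30910 genes did, and 6 passed without knockout male 1, where 635 of 18575 did.

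Among relatives of the fibulins, 1 of 5 was up-regulated in knockout females. This was *Hmcn2*, which encodes hemicentin-2, at 1.68 on the log2 scale (SE 0.53, edgeR, adjusted p = 0.024). *Efemp1*, the gene of fibulin-3, had an interaction of −1.12 (SE 0.31, edgeR, adjusted p = 0.023), from −0.16 in females and 0.96 in males, a split like that of *Fbn1* and *Mfap5*. Among 10 tested microfibril-associated and emilin genes, *Adamtsl4*, whose product binds fibrillin-1, was up-regulated in knockout females (0.96, SE 0.28, edgeR, adjusted p = 0.017) and *Mfap3* was down-regulated (−0.27, SE 0.09, edgeR, adjusted p = 0.038). *Emilin2*, of an elastin interface protein family, had an interaction of −1.50 (SE 0.47, edgeR, adjusted p = 0.036), and *Thsd4*, which promotes microfibril assembly, had one of the opposite sign (1.14, SE 0.26, edgeR, adjusted p = 0.0099).

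Of the 5 lysyl oxidases, which cross-link elastin, *Loxl2* was down-regulated in knockout females (−0.59, SE 0.18, edgeR, adjusted p = 0.021) and none was a DEG in males. *Loxl1*, the lysyl oxidase tied most closely to elastic fibres, was singled out after its values were seen: it had means of 472 normalized counts in wild-type and 889 in knockout males, a log2 fold change of 0.91 (SE 0.17) that did not pass (edgeR, adjusted p = 0.057). It passed without knockout male 1 (1.06, edgeR adjusted p = 0.0089) and without wild-type female 1 (0.95, edgeR adjusted p = 0.038). With all 12 libraries it also passed with RLE scaling (0.93, edgeR adjusted p = 0.045), with at least 10 counts in every library (0.94, edgeR adjusted p = 0.044), with no low-count filter and by DESeq2. Of the 7 latent TGF-beta binding proteins and TGF-betas, *Ltbp2*, which binds fibrillin-1, was up-regulated in knockout females (0.47, SE 0.16, edgeR, adjusted p = 0.037), and had −0.76 in males (SE 0.16, edgeR, adjusted p = 0.089) and an interaction of 1.23 (SE 0.23, edgeR, adjusted p = 0.0048). Of the 8 integrin subunits, *Itgb1* was down-regulated in knockout females (−0.64, SE 0.13, edgeR, adjusted p = 0.0027).

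Of the 5 tested proteases that degrade elastin, *Mmp9* was up-regulated (1.07, SE 0.26, edgeR, adjusted p = 0.0061) and *Ctss* was down-regulated (−0.77, SE 0.22, edgeR, adjusted p = 0.015) in knockout females. Of the 5 other thrombospondin-repeat genes tested, *Sspo*, which encodes SCO-spondin, was up-regulated in knockout females (2.29, SE 0.46, edgeR, adjusted p = 0.0022) and had 0.00 in males (SE 0.43, edgeR, adjusted p = 1.0). Over all lists the interaction passed for 3 of the 45 genes with a positive and 5 with a negative sign, beside 13.4% and 12.4% of all genes. In wild-type glands 11 of the 45 were higher and 9 lower in males, beside 20.5% and 16.0% of all genes.

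With 1 library left out at a time, the female calls of *Itgb1*, *Mmp9* and *Sspo* and the interactions of *Thsd4* and *Ltbp2* passed in all 12 cases. Without knockout female 1, the female calls of *Hmcn2*, *Mfap3*, *Adamtsl4*, *Loxl2*, *Ltbp2* and *Ctss* were lost, and without knockout female 3 those of the same genes except *Ctss*. *Hmcn2* and *Adamtsl4* were also lost without wild-type female 2 or 3, *Mfap3* without knockout male 3 or wild-type male 3, and *Ltbp2* without wild-type female 1 or 3 or wild-type male 1 or 3. In these fits the log2 fold change ran from 1.24 to 2.98 for *Hmcn2*, from 0.72 to 1.25 for *Adamtsl4*, from −0.38 to −0.27 for *Mfap3*, from −0.86 to −0.49 for *Loxl2*, from 0.33 to 0.55 for *Ltbp2* and from −1.02 to −0.58 for *Ctss*. The *Efemp1* interaction was lost without knockout male 2 (−0.98), wild-type male 1 (−1.11) or wild-type male 3 (−1.02). The *Emilin2* interaction, between −1.79 and −1.08, passed in 4 of the 12 cases, those without knockout female 2, knockout male 1 or wild-type female 2 or 3. With all 12 libraries, the female calls of *Loxl2* and *Mfap3* were lost with upper-quartile scaling. Those of *Hmcn2* and *Mfap3* were lost with the authors' factors and in the fit within females, and that of *Mfap3* with no low-count filter. With at least 10 counts in every library, where 42 genes were tested, *Hmcn2*, *Mfap3* and *Sspo* were not called.

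The genes whose pattern over the 12 libraries was closest to each member were found by the mean absolute difference of centred log2 CPM, for the 9 members with a median of at least 50 counts. For *Fbn1* the closest were *Dab2* (0.128), *Gm28529* (0.136) and the collagen gene *Col3a1* (0.158). For *Fbln2*, the member with the closest match, they were *Pmepa1* (0.0613), *Pcolce* (0.0865) and *Mrc2* (0.0913), and for *Fbln5* they were *Gm28529* (0.11), *St3gal2* (0.121) and *Cd248* (0.132). *Mfap5* was closest to *Folr2* (0.186), *Fn1* (0.189) and *Slc25a45* (0.189), and *Spon1* to *Dynll1* (0.155), *2810414N06Rik* (0.161) and *Sparc* (0.169). *Eln* was closest to *Klf2* (0.176), *Fbln1* to *Gm20559* (0.136) and *Mfap4* to *Ppp1r14a* (0.247).

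*Spon2* had the most distant nearest gene of the 9, *Sp140l1* at 0.354. Within the members, *Fbn1* and *Fbln5* were closest to each other (0.197), *Fbln2* and *Eln* were closest to *Fbln5* (0.205 and 0.374), and *Mfap5* to *Fbn1* (0.251). *Fbln1*, *Spon1*, *Mfap4* and *Spon2*, the 4 members that differed by sex, had their nearest member at 0.459 to 0.553. Since the libraries span both sexes, a sex difference by itself sets a gene apart from those without one on this measure.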

How the data were processed

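SMGs were snap-frozen, 100 ng of total RNA per mouse was depleted of ribosomal RNA, and stranded libraries were read as pairs of 100 bp. The labels name the molecule as polyA RNA, which the library kit does not select for. The authors ran Salmon 1.10.1 on the Gencode M35 transcripts (GRCm39) and deposited estimated counts per gene, in which 78.7% of values are exactly whole, zeros included, and 47.7% of those above 0. Whether Salmon used the strand is not given in the sources used here, so that reads of a gene and its opposite-strand neighbour may not be separated. A further table, also deposited, gives a normalized signal in which each count was divided by a gene- and library-specific factor of unstated origin. It served only as an alternative scaling.

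Estimated counts were rounded to whole numbers. edgeR 4.0.16 (R 4.3.3) scaled the libraries by TMM, and its filterByExpr function kept 17893 genes. Its quasi-likelihood test was run on all 12 libraries together, each group with its own mean, and p-values were adjusted over all genes by Benjamini-Hochberg. Each SE was obtained from the log2 fold change and the F statistic, as the absolute fold change over the root of F. Normalized counts are TMM-scaled and brought to the mean effective library size. A prior count of 2 was used for log2 CPM. Library totals of 47032175 to 67882207 counts limit low genes such as *Fbn2*. Deposited identifiers were matched to Gencode M39 by stable identifier (55563 of 56065), and promoters were read from GRCm39.

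Groups came from the sample titles. Within each sex, knockout was compared with wild type, followed by the difference of these contrasts and by male against female wild type. All 10 genes are named, with at most 3 genes per companion list and contrast by smallest adjusted p past 0.05 in a genotype contrast or the interaction, and the 3 genes closest in pattern. The members, companion lists, marker lists and tests were chosen with earlier results of these data known. Alternatives were RLE, upper-quartile and the authors' factors, library sizes without the 20 most abundant genes, no filter on low counts, a minimum of 10 counts in each library, DESeq2 1.42.0, a replicate block, a fit within each sex and each library left out. Leaving out wild-type female 1 and knockout male 2 together was added after seeing the data. Tested on simulated data with 200 of 17515 genes changed 3-fold in females, edgeR recovered 91.0% of them and called 0 genes in males. Recovery of genes with counts as low as those of *Fbn2* was not tested separately.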

Additional observations from a re-analysis of the deposited data

Results flagged for a closer look

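In 10 genes the difference between genotypes itself differed between the sexes by the interaction test (female minus male log2 fold change, edgeR with Benjamini-Hochberg adjustment, 3 mice per group), and 2 of them are members. These are 2 of 10 members and 8 of 45 companion genes, where 25.7% of all genes passed, so that neither share is above that of all genes. For *Fbn1* the interaction was −0.91 (adjusted p = 0.041 by edgeR): all 3 knockout males lay above all 3 wild-type males, and the female genotypes overlapped. For *Mfap5* it was −1.74 (adjusted p = 0.037 by edgeR), with the same arrangement of libraries. In wild-type female 1 and knockout male 2 most members and the macrophage marker sum were highest in their groups. Without both libraries, a choice made after seeing the data that had to bring the values nearer to 0, the interactions were −0.45 and −0.71. In the same contrast 5 of 5 adipocyte, 2 of 5 macrophage and 1 of 8 fibroblast markers passed with a negative sign, and no tested marker of the other lists passed. The part of the cell make-up of these libraries was not tested.

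Of the companion genes, 8 of 45 passed the same test by edgeR, beside 25.7% of all genes. The interaction was −1.12 for *Efemp1*, −1.50 for *Emilin2*, −1.20 for *Ctss*, −0.55 for *Itgb1* and −0.40 for *Mfap3*. It was 1.14 for *Thsd4*, 1.23 for *Ltbp2* and 2.29 for *Sspo*. With each library left out in turn, *Thsd4*, *Ltbp2* and *Ctss* passed in all 12 cases, *Efemp1* in 9, *Mfap3* and *Sspo* in 7, *Itgb1* in 5 and *Emilin2* in 4. Among the other scalings of all 12 libraries, *Mfap3* and *Itgb1* were lost with upper-quartile scaling, and *Mfap3* and *Sspo* with the authors' factors.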

How the results depend on the processing

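The number of members past the threshold for the sex difference in wild type was 4, with 3 to 4 with 1 library left out. It was 5 with no low-count filter and with DESeq2, where *Eln* joined, and 3 with RLE, upper-quartile and the authors' factors, with library sizes without the 20 most abundant genes and with wild-type female 1 and knockout male 2 both left out. Without wild-type female 2 or 3 the count of 4 held *Eln* in place of *Spon1*. In females it was 1, became 2 with the replicate block, in which *Spon1* joined *Spon2* at −0.49, and 3 with wild-type female 1 and knockout male 2 both left out, and ran from 1 to 3 with 1 library left out. In males it was 2 and became 1 with the authors' factors, with at least 10 counts in every library (where *Fbn2* was not tested), with the replicate block and with wild-type female 1 and knockout male 2 both left out, where *Fbn1* alone passed. It became 5 with no low-count filter and 5 with DESeq2, each time *Fbn1*, *Fbn2*, *Eln*, *Mfap5* and *Spon2*. The calls among all genes in males rose with these settings too, from 42 of 17893 to 389 of 30910 and 406 of 17893. With 1 library left out it ran from 0 to 5: it was 0 without knockout male 2 or any wild-type male (5 to 6 at an unadjusted p under 0.05), 1 without knockout male 3, any knockout female or wild-type female 2, 4 without wild-type female 1 and 5 without knockout male 1, where 635 of 18575 genes were called. The interaction count of 2 became 1 with upper-quartile scaling, 1 with the authors' factors, 0 with the replicate block and 0 with wild-type female 1 and knockout male 2 both left out, and ran from 0 to 3 with 1 library left out, with 0 without knockout female 1, knockout male 2 or any wild-type male. At an unadjusted p under 0.05, edgeR gave 4 members with the block and 3 with both libraries left out, and DESeq2 called 3 with all libraries. The replicate numbers showed no sign of pairing mice, and the labels name no pairing. The correlation of same-numbered libraries was −0.11 to 0.05 for females and −0.13 to 0.09 for males. That of differently numbered libraries of the same sex ran from −0.11 in males to 0.15 in females. The block values are therefore given here only.

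*Spon2* passed in females under all 10 settings other than leaving out 1 library (1.41 to 1.55) and in males under 9 of 10 (1.34 to 1.47), the exception being wild-type female 1 and knockout male 2 both left out (1.34, edgeR adjusted p = 0.085). *Fbn2* in males ranged from 2.72 to 3.00 and passed in 6 of the 9 settings that tested it. Some small differences turned their sign. In females, *Fbln1* became 0.03 and *Fbln5* 0.05 with upper-quartile scaling, *Mfap5* became 0.02 with the authors' factors, and *Fbln5* and *Mfap5* became 0.24 and 0.43 with wild-type female 1 and knockout male 2 both left out. The *Fbln2* interaction became 0.10 with the authors' factors and 0.01 with both libraries left out. Between the wild-type sexes, *Fbn1* became −0.03 with upper-quartile scaling and −0.22 with the authors' factors, and *Fbln5* and *Mfap5* became 0.13 and 0.38 with both libraries left out. None of these passed under any setting named. With 1 library left out, the ranges that cross 0 were −0.12 to 0.30 for *Fbn1*, −0.14 to 0.17 for *Fbln2*, −0.25 to 0.24 for *Fbln5* and −0.61 to 0.43 for *Mfap5* in females, −0.31 to 0.17 for *Mfap4* in males, −0.15 to 0.20 for the *Spon2* interaction, and −0.11 to 0.30 for *Fbn1*, −0.35 to 0.13 for *Fbln5* and −0.66 to 0.38 for *Mfap5* between the wild-type sexes. The cause of these changes was not tested.

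Upper-quartile scaling moved the median of all genes in females from 0.03 to 0.13 and the share of higher genes among all female calls from 47.8% to 59.7%. With 3 mice per group, fold changes of low genes such as *Fbn2* and *Mfap4* have standard errors of 0.40 to 0.56 in the genotype comparisons.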
